A study of Mus musculus with 18 samples.

Results

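Complement is a set of plasma and membrane proteins that tag cells and microbes, recruit leukocytes and punch pores in membranes. It can start in any of 3 ways. In the classical pathway C1q binds antibody or dying cells and its partner proteases C1r and C1s cut C4 and C2. In the lectin pathway the MASP proteases do this on sugars, and in the alternative pathway factor B, factor D and properdin act on C3 that has turned over by itself. All meet at C3, from which C5 and the pore proteins C6 to C9 follow, while the fragments C3a and C5a signal through receptors on leukocytes and a set of regulators holds the cascade on host cells in check. Most plasma complement is made by the liver, but macrophages, stromal cells and glandular epithelia also make components locally.

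The 34 genes described here are complement components, receptors and regulators chosen by name, out of 54232 genes counted in the lacrimal gland (LG). They comprise 6 genes of classical initiation, 5 of lectin initiation, C2, C4a, C4b and C3, 3 of the alternative pathway, 4 terminal components, 4 receptors and 8 regulators. Whole LGs of 18 male mice were sequenced, 1 gland per mouse and 3 mice in each group. Control mice were BALB/cJ (BALB/c) at 2, 4 and 6 months (2M, 4M and 6M), and the disease model was NOD.B10Sn-H2b/J (NOD.H-2b) at the same ages, with no treatment in either strain. NOD.H-2b mice model primary Sjögren's syndrome, an autoimmune disease of tear and salivary glands, and carry the H2b haplotype of C57BL/10SnJ in place of the diabetes-linked class II segment of NOD. BALB/c is a different inbred strain with another H2 haplotype, so disease and all other strain differences cannot be told apart. Inbred NOD strains are also known for a loss of function variant of Hc, the gene for C5; counts hold no sequence, and that allele was not checked here.

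Each mouse gave 49480781 to 103936830 counts in all (median 59005987), with the highest total in replicate 1 of BALB/c at 6M. Marker genes of secretory cells of the LG summed to between 66538 and 126486 CPM (counts of a gene per 1000000 counts) in each mouse, so the glands held the cells their label names. These sums were lower in NOD.H-2b, at 104362 to 107856 CPM against 116532 to 122881 CPM in BALB/c at 2M and 66538 to 85565 CPM against 118328 to 126486 CPM at 6M, and overlapped at 4M. Most of each sum came from Scgb2b7 (44311 to 82825 CPM) and Mup4 (21520 to 46639 CPM). In the strain tests described below, of these 10 markers only Car6 was called lower at any age, and Lcn3 was called higher at each age. The part of secretory cells in the differences below was not tested. Marker sums of macrophages, B cells and T cells differed between the strains at every age. The summed CPM of 14 macrophage and monocyte markers ran from 61.6 to 178 in the 9 BALB/c mice and from 253 to 526 in the 9 NOD.H-2b mice. That of 8 B cell markers stayed at or under 2.41 in BALB/c, was 1.61 to 28.4 in NOD.H-2b at 2M and reached 148 to 444 at 4M and 6M. For 10 T cell markers the sums were at most 6.68 in BALB/c and 10.5 to 141 in NOD.H-2b. Replicate 3 of BALB/c at 4M had the highest macrophage sum (178) and T cell sum (6.68) of its strain.

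Of the complement genes that could be tested, 15 of 30 were higher in the NOD.H-2b LG at 2M. They included C1q, C4b, C3, factor B, properdin, C6 and the receptors for C3a and C5a. The others were Masp1 and the regulators Serping1, Clu and Cd59a. A differentially expressed gene (DEG) passed a false discovery rate (FDR) of 0.05 in the quasi-likelihood test of edgeR, adjusted over all genes, with at least a 2-fold change. Those 15 members (50.0%) were higher DEGs at 2M, where 12.0% of all 17200 genes tested were, and 2 were lower (6.67%), where 3.76% of all genes were. At 4M there were 13 higher (43.3%, against 15.6% of all genes) and 1 lower (3.33%, against 4.72%). At 6M the figures were 17 higher (56.7%, against 18.8%) and 2 lower (6.67%, against 6.03%). The median log2 fold change of the members tested was 1.07, 0.83 and 1.34 at 2M, 4M and 6M, beside 0.01, 0.00 and -0.004 over all genes tested. Some members passed the filter on low counts only through the strain where they were high, since fewer than 3 mice of the other strain were past its limit. Of the higher DEGs this held for C5ar1, C5ar2, C6, Cfb and Masp1 at 2M, for C5ar2, C6 and Cfb at 4M and for C5ar2, C6, Cfb, Fcna and Masp1 at 6M, and of the lower DEGs for Hc at 2M and 6M. Among the 22, 25 and 23 members past the filter's limit in all 6 mice, 10, 10 and 12 were higher DEGs (45.5%, 40.0% and 52.2%, beside 7.72%, 10.4% and 11.9% of all such genes). In bulk tissue, more cells of a type and more RNA per cell cannot be told apart.

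The members that were higher DEGs at all 3 ages numbered 11, namely C1qa, C1qb, C1qc, C4b, C3, Cfb, Cfp, C6, C3ar1, C5ar1 and C5ar2, of which C6, C5ar2 and Cfb were in the test at every age through NOD.H-2b alone. No member (0) was a lower DEG at all ages. A further 8 were higher at 1 or 2 ages, namely C1ra, C1s1, Masp1, Fcna, Serping1, Clu, Cd55 and Cd59a. Of the remaining genes, 3 were lower at 1 or 2 ages (Masp2, C4a and Hc) and 12 were called at no age. Those 12 were C1rb, Mbl1, Mbl2, C2, Cfd, C7, C8g, Vsig4, Cfi, Vtn, Cd46 and Cr1l. Mbl1, Mbl2, Vsig4 and Cfi did not pass the filter on low counts in the fit of any age.

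**Figure D1:**
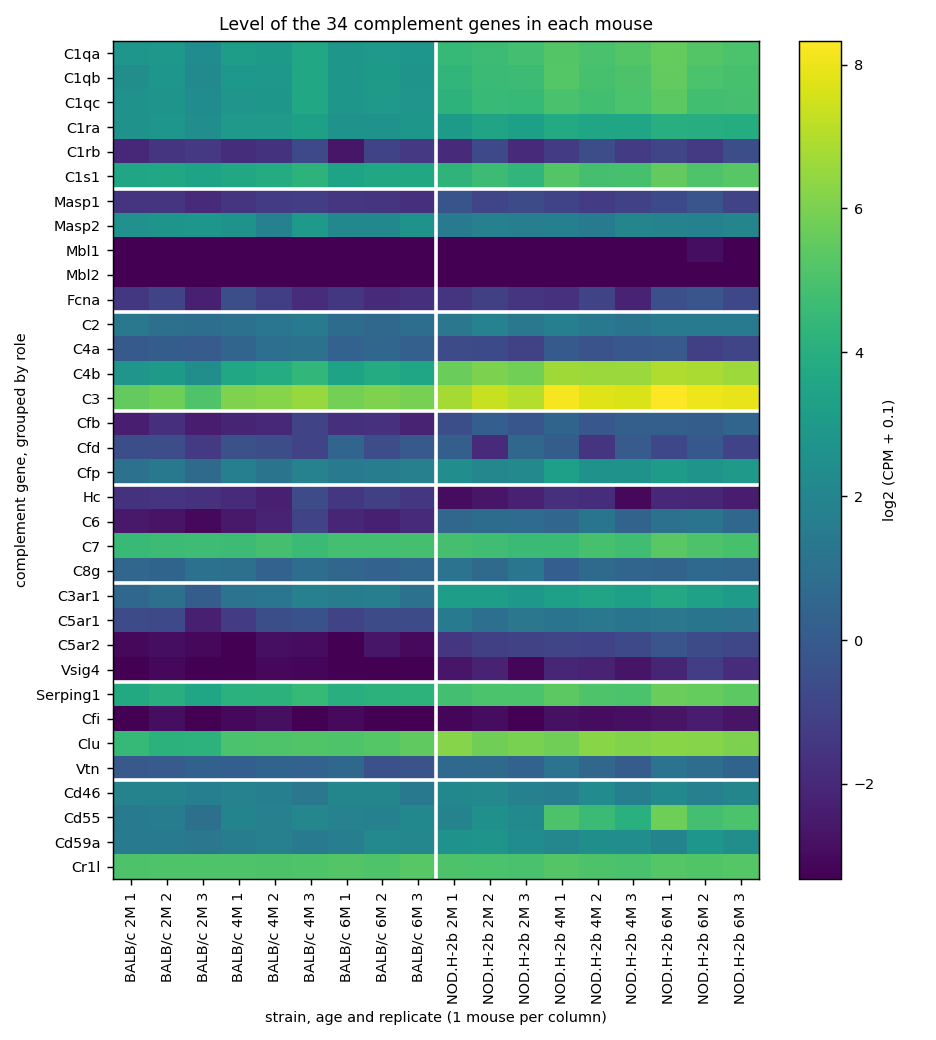
Level of each of the 34 complement genes (rows, grouped by role) in each of the 18 mice (columns), as log2 of CPM plus 0.1. C3, C4b and the C1q genes are brighter in every NOD.H-2b column than in the BALB/c columns, Cd55 brightens in NOD.H-2b from 4M on, and Mbl1 and Mbl2 are dark throughout.

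The sequences around 3 transcription starts are shown first, because C1q and Cd55 are among the members whose levels are set beside leukocyte markers. Only the C1qb and C1qc windows of these 3 hold the motif marked in capitals. The windows of C3ar1 and C5ar1, which are also set beside macrophage markers below, do not hold it. Each window runs from 250 bases before to 50 bases after a start in RefSeq (build GRCm38.p6), and capitals mark GAGGAA on either strand, a sequence bound by the myeloid factor PU.1. The C1qb window is chr4:136886151-136886450 and the C1qc window is chr4:136892865-136893164, both read on the minus strand. The Cd55 window, also on the minus strand, is chr1:130462695-130462994.
C1qb: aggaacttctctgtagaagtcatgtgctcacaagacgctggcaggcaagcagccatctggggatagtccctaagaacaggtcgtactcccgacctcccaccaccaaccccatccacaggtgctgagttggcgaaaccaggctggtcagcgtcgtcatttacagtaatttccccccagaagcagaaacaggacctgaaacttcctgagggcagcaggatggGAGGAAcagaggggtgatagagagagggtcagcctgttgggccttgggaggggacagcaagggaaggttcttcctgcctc
C1qc: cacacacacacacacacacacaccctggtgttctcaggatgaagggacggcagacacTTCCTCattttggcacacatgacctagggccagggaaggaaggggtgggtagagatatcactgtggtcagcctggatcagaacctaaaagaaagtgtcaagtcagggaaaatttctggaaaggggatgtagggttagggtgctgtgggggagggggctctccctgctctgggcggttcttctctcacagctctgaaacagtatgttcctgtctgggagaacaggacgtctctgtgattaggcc
Cd55: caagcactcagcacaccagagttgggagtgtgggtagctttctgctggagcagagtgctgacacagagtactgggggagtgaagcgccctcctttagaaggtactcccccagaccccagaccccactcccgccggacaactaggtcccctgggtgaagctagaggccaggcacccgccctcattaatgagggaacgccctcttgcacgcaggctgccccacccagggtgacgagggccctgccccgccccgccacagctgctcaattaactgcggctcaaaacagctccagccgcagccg

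The match in C1qb starts 30 bases before the transcription start and that in C1qc 193 bases before it, on the other strand. These letters are common. They occur in 28.3% of 32851 promoter windows and in 8 of the 28 windows (28.6%) that RefSeq gave for 25 of the 34 members, so the members held them about as often as any promoter. The interferon gamma element TTCNNNGAA was in 5 member windows (17.9%, against 8.3% of all), the core of the type I interferon element (GAAA, 2 bases of any kind, GAAA) in 3 (10.7%, against 3.44%) and the NF-kB element (GGGA, 2 bases of any kind, TTCC) in 0 (against 1.47%). The 5 were those of C1ra, C1rb, C7, Masp2 and Vtn, and the 3 those of Cd46, Cd59a and Vtn. Of these genes only C1ra (at 6M) and Cd59a (at 2M) were higher DEGs. A match is a description of letters and not a binding site.

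C1q, the antibody-binding part of C1, is built from the products of C1qa, C1qb and C1qc, which lie side by side on chromosome 4 (C1qa at chr4:136895917-136898803). All rose 3.56-fold to 5.59-fold in NOD.H-2b over BALB/c. In BALB/c the C1qa level was 6.76, 7.27 and 4.99 CPM in the mice of 2M, 9.07, 7.96 and 12.7 CPM at 4M, and 7.09, 7.62 and 6.92 CPM at 6M. The NOD.H-2b mice had 22.4, 25.5 and 28.5 CPM at 2M, 37.4, 31.9 and 36.9 CPM at 4M, and 48.1, 36.9 and 32.9 CPM at 6M. No NOD.H-2b mouse of any age reached down to the highest BALB/c mouse, which was replicate 3 at 4M. For C1qa the log2 fold change was 2.05 ± 0.15 (SE, n = 3 against 3) at 2M with an edgeR adjusted p of 1.8e-05, 1.84 ± 0.17 at 4M and 2.48 ± 0.14 at 6M.

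C1qb counts gave 5.31, 6.91 and 4.6 CPM in BALB/c against 20.4, 24.3 and 25.2 CPM in NOD.H-2b mice at 2M. At 4M they gave 7.22, 7.27 and 12.2 CPM against 38.1, 31 and 33.7 CPM, and at 6M 7, 8.03 and 6.38 CPM against 46.6, 32.8 and 31 CPM. For C1qc the BALB/c mice had 5.96, 6.43 and 5.03 CPM at 2M, 6.62, 7.03 and 12.1 CPM at 4M and 7, 7.56 and 6.55 CPM at 6M. The strains again did not overlap. In NOD.H-2b, C1qc stood at 18.7, 22.8 and 22.1 CPM at 2M, at 31.7, 27.8 and 32.2 CPM at 4M and at 42.6, 27.5 and 29.4 CPM at 6M. The log2 fold changes were 2.10, 1.94 and 2.40 for C1qb and 1.91, 1.83 and 2.27 for C1qc over the ages, each called. Per length of exon, the C1qb level was 0.751 to 1.01 of the C1qa level in BALB/c and 0.845 to 0.973 of it in NOD.H-2b. The C1qc level was 0.393 to 0.542 of the C1qa level in BALB/c and 0.402 to 0.481 of it in NOD.H-2b. Within an age these ratios overlapped between the strains, except that of C1qc at 6M, at 0.509 to 0.534 in BALB/c against 0.402 to 0.481.

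Both C1q and the macrophage markers were higher in NOD.H-2b. The summed CPM of C1qa, C1qb and C1qc was 0.216 to 0.237 of the macrophage sum in BALB/c and 0.243 to 0.281 in NOD.H-2b mice at 2M. It was 0.198 to 0.223 against 0.227 to 0.253 at 4M and 0.181 to 0.212 against 0.228 to 0.261 at 6M. The ratio was thus higher in each NOD.H-2b mouse than in the BALB/c mice of its age. Of the 14 macrophage markers, 12 were higher DEGs at 2M, 11 at 4M and 12 at 6M, while Cd163 was lower at 6M. Lyz2 and Mpeg1, the markers with the most counts, had 11.9 to 51.1 CPM and 7.02 to 30.7 CPM in BALB/c and 68.1 to 199 CPM and 46.7 to 138 CPM in NOD.H-2b. The part of macrophage number in the C1q difference was not tested.

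C1ra and C1s1 encode the proteases C1r and C1s, neighbours on chromosome 6, and their strain differences widened with age. C1s1 stood at 11.5, 12.4 and 10.7 CPM in BALB/c and 19.3, 25 and 20.3 CPM in NOD.H-2b mice at 2M. At 4M the levels were 12.5, 14.2 and 18.6 CPM against 37.2, 30 and 30.7 CPM, and at 6M 10.8, 12.1 and 12.7 CPM against 46.8, 34.3 and 39.8 CPM. The groups did not overlap at any age. On the log2 scale C1s1 differed by 0.94 ± 0.11 at 2M, under the 2-fold limit but with an adjusted p of 5.1e-05, then 1.12 ± 0.16 and 1.80 ± 0.12 at 4M and 6M, where it was a DEG.

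C1ra had 6.27, 6.96 and 5.2 CPM in BALB/c against 7.94, 11.2 and 9.37 CPM in NOD.H-2b mice at 2M. The values at 4M were 7.61, 7.62 and 9.74 CPM against 14, 12 and 12 CPM, and those at 6M 6.15, 6.2 and 7.01 CPM against 16.3, 15.1 and 14.7 CPM. The strains did not overlap within an age. Its log2 fold change was 0.67 ± 0.15, 0.61 ± 0.13 and 1.29 ± 0.10, past the FDR at each age and past 2-fold at 6M only. The gap widened from 2M to 6M by 0.87 ± 0.21 on the log2 scale for C1s1 (edgeR strain by age over 18 mice, adjusted p = 0.0122) and by 0.63 ± 0.19 for C1ra (adjusted p = 0.0308). The C1ra call was lost in 7 of the 18 fits that left out 1 mouse. Per length, the C1s1 level was 1.56 to 1.96 times that of C1ra in BALB/c and 2.06 to 2.73 times in NOD.H-2b, with no overlap between the strains.

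Reads of these proteases can be shared with copies. Of the 75-base windows of C1ra transcripts, 42.4% also occurred in another gene, chiefly C1rb, and 24.8% of those of C1s1 occurred in C1s2 or Gm16567. C1rb, the copy of C1ra, had 6 to 37 counts per mouse and was called at no age. How the reads of shared windows were counted is not stated in the sources used here, so the split between copies is uncertain.

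Among lectin pathway genes, the mannose-binding lectins were at or near 0. Mbl1 had 2 counts in 1 NOD.H-2b mouse at 6M and none elsewhere, and Mbl2 had 0 in all 18 mice. A count of 0 does not show absence, and the pooled ratios below use a floor of 3 counts over a group with 0. Masp1, a protease of the lectin pathway, had 0.159 to 0.328 CPM in BALB/c and 0.309 to 0.751 CPM in NOD.H-2b, with log2 fold changes of 1.45 and 1.27 at 2M and 6M, where it was a DEG, and 0.32 (adjusted p = 0.523) at 4M. The 6M call of Masp1 was lost without replicate 2 of NOD.H-2b (log2 fold change 1.01). Fcna, a ficolin of macrophages, was a DEG at 6M only, with a log2 fold change of 1.48 ± 0.36 and levels of 0.17 to 0.268 CPM in BALB/c against 0.473 to 0.734 CPM in NOD.H-2b.

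Masp2, the protease that cuts C4 and C2 in this pathway, was the one lectin gene lower in NOD.H-2b. It had 5.83 to 6.96 CPM in BALB/c and 2.58 to 3.23 CPM in NOD.H-2b mice at 2M, a log2 fold change of -1.06 ± 0.13. The difference was -0.81 at 4M (adjusted p = 0.0462) and -0.40 at 6M (adjusted p = 0.083), and the 4M value lost its FDR in 5 of the 6 fits without 1 mouse. However, 51.4% of the 75-base windows of Masp2 transcripts lie in Tardbp, which runs on the other strand over the same bases at 75.4 to 96.3 CPM. The strand setting of the counts is not stated, so reads of the 2 genes cannot be told apart.

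C4 is cut by C1s or MASP-2 and its larger fragment binds the target. Mice have C4b, the C4 gene proper, and its copy C4a, both in the H2 region of chromosome 17 (C4b at chr17:34728380-34743882, C4a at chr17:34809092-34823464). The 2 genes moved in opposite directions. C4b rose 8.85-fold at 2M, 6.08-fold at 4M and 9.3-fold at 6M in NOD.H-2b over BALB/c, while C4a was lower by about 1 log2 unit. The longest transcripts of both genes in GENCODE M21 were 96.1% identical over 5367 aligned bases. The stretch of 75 bases within the coding sequence of C4b where they differ most shows what a 75-base read can tell apart, with the 13 differing bases in capitals.
C4a: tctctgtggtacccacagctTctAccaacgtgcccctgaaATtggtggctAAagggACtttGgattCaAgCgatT
C4b: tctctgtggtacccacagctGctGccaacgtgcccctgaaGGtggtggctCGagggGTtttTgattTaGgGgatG

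Of the 75-base windows of C4b, 22.7% also occurred in C4a, and reads of those windows cannot be assigned to either copy. C4b had 6.74, 8.13 and 5.34 CPM in the BALB/c mice at 2M, 12.5, 14.8 and 21.1 CPM at 4M and 10.8, 14.4 and 11.8 CPM at 6M. In NOD.H-2b it had 51.3, 64.7 and 57.6 CPM at 2M, 102, 95.6 and 96.1 CPM at 4M and 122, 115 and 97.3 CPM at 6M. The lowest NOD.H-2b mouse lay above the highest BALB/c mouse by a wide margin. On the log2 scale C4b rose by 3.15 ± 0.17, 2.61 ± 0.19 and 3.22 ± 0.13 over the ages, with an adjusted p of 1.9e-07 at 6M.

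The C4a levels of BALB/c were 0.898, 0.969 and 0.917 CPM at 2M, 1.29, 1.79 and 1.92 CPM at 4M and 1.18, 1.34 and 1.1 CPM at 6M. Those of NOD.H-2b were 0.558, 0.517 and 0.377 CPM at 2M, 0.878, 0.68 and 0.801 CPM at 4M and 0.862, 0.367 and 0.438 CPM at 6M. Again the groups did not overlap, with NOD.H-2b below. The differences on the log2 scale were -0.89 ± 0.28, -1.08 ± 0.26 and -1.06 ± 0.34, with an FDR under 0.05 at each age and a DEG at 4M and 6M. The calls past the FDR at 2M and at 6M were each lost in 4 of the 6 fits that left out 1 mouse. C4b had 5.83 to 11 times the counts of C4a in BALB/c and 92 to 313 times in NOD.H-2b. The H2 haplotypes of the strains differ at this locus and the reads were aligned to a reference with the H2b haplotype, as NOD.H-2b carries. Allelic alignment and expression cannot be told apart.

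C2, which joins C4b in the classical C3 convertase, lies in the same region and was a DEG at no age. Of its 75-base windows, 39.2% also occur in the read-through gene Gm20547 or in Zbtb12, so some of its reads may have been left out of the counts or shared. It had 2.45, 1.88 and 1.76 CPM in BALB/c against 2.36, 3.45 and 2.42 CPM in NOD.H-2b mice at 2M. The 4M values were 1.95, 2.25 and 2.77 CPM against 3.16, 2.52 and 2.14 CPM, and those at 6M 1.62, 1.45 and 1.78 CPM against 2.8, 2.6 and 2.58 CPM. The strains overlapped at 2M and 4M and separated at 6M, where the log2 fold change was 0.76 ± 0.18 (adjusted p = 0.00461), under 2-fold.

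C3, the protein on which all pathways meet, had the highest mean level per length of the members in NOD.H-2b at each age, though at 2M it lay within the spread of C1qa (25.9 ± 5.3 and 24.5 ± 2.92 CPM per kb). In BALB/c it had 46.3, 54.4 and 34.2 CPM at 2M, 68.1, 74.4 and 92.7 CPM at 4M and 59, 67.9 and 61.4 CPM at 6M. The NOD.H-2b mice had 108, 162 and 130 CPM at 2M, 287, 220 and 206 CPM at 4M and 322, 261 and 245 CPM at 6M. Every NOD.H-2b mouse exceeded every BALB/c mouse. C3 had a log2 fold change of 1.61 ± 0.25, 1.61 ± 0.16 and 2.17 ± 0.12, or 3.05-fold, 3.04-fold and 4.51-fold. C4b gained on C3: per length, the C4b level was 0.132 to 0.206 of that of C3 in BALB/c and 0.323 to 0.43 in NOD.H-2b.

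**Figure D2:**
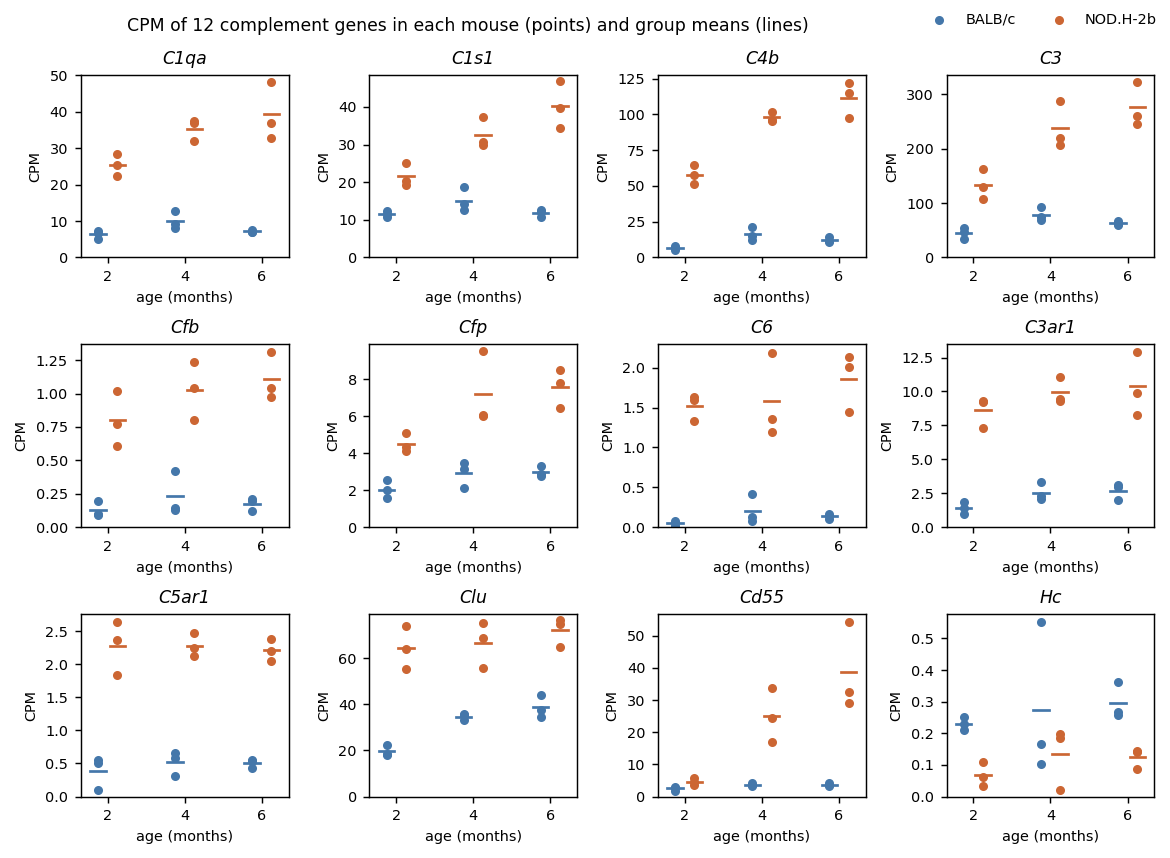
CPM of 12 complement genes against age in months, with each point 1 mouse (BALB/c blue, NOD.H-2b orange), each line the mean of 3 mice and each axis starting at 0. NOD.H-2b lies above BALB/c at 2M for C1qa, C1s1, C4b, C3, Cfb, Cfp, C6, C3ar1, C5ar1, Clu and, more narrowly, Cd55. Cd55 climbs in NOD.H-2b from 3.63 to 5.68 CPM at 2M to 29.1 to 54.3 CPM at 6M, and Hc lies lower in NOD.H-2b at 2M and 6M.

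Of the alternative pathway, factor B (Cfb), the protease that joins C3b, and properdin (Cfp), which steadies the resulting convertase, rose in NOD.H-2b, while factor D (Cfd) did not pass the test. Cfb had 0.0955, 0.197 and 0.0882 CPM in BALB/c against 0.607, 1.02 and 0.77 CPM in NOD.H-2b mice at 2M. It had 0.129, 0.142 and 0.417 CPM against 1.24, 0.803 and 1.04 CPM at 4M, and 0.193, 0.213 and 0.117 CPM against 1.04, 0.978 and 1.31 CPM at 6M. The strains did not overlap. Cfb differed by 2.68 ± 0.42, 2.11 ± 0.46 and 2.66 ± 0.34 on the log2 scale, and the value at 4M was 2.91 without replicate 3 of BALB/c. Cfb lies in the H2 region next to C2, and 69.9% of its 75-base windows also occur in the read-through gene Gm20547, which had 0 counts in all mice, so reads of Cfb may have been left out of the counts as matching both.

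Properdin, made mainly by myeloid cells, read 1.99, 2.55 and 1.55 CPM in BALB/c against 5.07, 4.12 and 4.35 CPM in NOD.H-2b mice at 2M. At the later ages Cfp gave 3.13, 2.13 and 3.49 CPM against 9.52, 6.07 and 6.03 CPM at 4M, and 2.74, 2.88 and 3.32 CPM against 8.53, 6.46 and 7.82 CPM at 6M. NOD.H-2b lay above BALB/c in every mouse, with log2 fold changes of 1.20, 1.31 and 1.39. Factor D, an adipocyte and myeloid protease that cuts factor B, had 0.3 to 1.31 CPM in BALB/c and 0.167 to 1.41 CPM in NOD.H-2b, and its difference ran from 0.88 at 2M to -0.68 at 6M with no adjusted p under 0.166.

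In the terminal pathway C6 was higher in NOD.H-2b, Hc was called lower at 2M and 6M in fragile calls, and C7 and C8g differed little. C6 at each age, and Hc at 2M and 6M, were in the test only through the strain where they were high. C6, which binds C5b as the pore begins to form, was close to absent in BALB/c, with 0.0764, 0.0538 and 0.0176 CPM (4, 3 and 1 counts) at 2M, 0.0737, 0.122 and 0.417 CPM at 4M and 0.14, 0.106 and 0.164 CPM at 6M. NOD.H-2b had 1.33, 1.63 and 1.6 CPM at 2M, 1.36, 2.19 and 1.2 CPM at 4M and 2.01, 2.13 and 1.45 CPM at 6M. All NOD.H-2b mice lay well above all BALB/c mice. The fitted log2 differences of C6 were 4.95 ± 0.41, 2.89 ± 0.54 and 3.79 ± 0.31, and since C6 passed the filter through NOD.H-2b alone they rest on few BALB/c counts. Replicate 3 of BALB/c held most of the BALB/c counts at 4M (28 of its age's 38), and without it the 4M value was 4.01.

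Hc encodes C5, the source of C5a and of the pore's first part. It had few counts. In BALB/c, Hc read 0.229, 0.251 and 0.212 CPM at 2M (12, 14 and 12 counts), 0.166, 0.102 and 0.552 CPM at 4M and 0.268, 0.362 and 0.257 CPM at 6M. In NOD.H-2b it read 0.0328, 0.0609 and 0.11 CPM at 2M (2, 4 and 7 counts), 0.197, 0.185 and 0.02 CPM at 4M and 0.144, 0.14 and 0.0876 CPM at 6M. The groups were apart at 2M and 6M, with NOD.H-2b lower, and overlapped at 4M. The log2 fold change was -1.68 ± 0.55 at 2M (adjusted p = 0.0291), -1.0 ± 0.77 at 4M (adjusted p = 0.339) and -1.19 ± 0.42 at 6M (adjusted p = 0.0354). Both calls were fragile. The 2M call was lost in 5 of the 6 fits that left out 1 mouse and the 6M call in all 6, and both were lost with DESeq2's test. The 4M value turned to 0.05 without replicate 3 of BALB/c.

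C7, which follows C6 in the pore, was among the best expressed members in both strains. It had 24.1 to 29.6 CPM in BALB/c and 24.3 to 40.9 CPM in NOD.H-2b, with log2 fold changes of 0.14, 0.05 and 0.30, the last past the FDR (adjusted p = 0.0338) and under 2-fold. That call was lost with upper quartile scaling and without any 1 BALB/c mouse or replicate 1 of NOD.H-2b. C8g, a chain of C8, had 1.16 to 1.97 CPM in BALB/c and 1.03 to 2.29 CPM in NOD.H-2b and no adjusted p under 0.215 between the strains.

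The receptors for the fragments C3a and C5a rose together. C3ar1, the C3a receptor of myeloid cells, had 1.41, 1.85 and 0.97 CPM in BALB/c against 9.24, 9.28 and 7.28 CPM in NOD.H-2b mice at 2M. It had 2.05, 2.28 and 3.3 CPM against 9.41, 11.1 and 9.33 CPM at 4M, and 2.97, 3.11 and 1.96 CPM against 12.9, 9.92 and 8.29 CPM at 6M. The strains stood apart at each age. C3ar1 rose by 2.65 ± 0.21, 1.97 ± 0.19 and 1.98 ± 0.21 on the log2 scale. C3ar1 was 0.0157 to 0.0207 of the macrophage sum in BALB/c and 0.0269 to 0.0365 of it in NOD.H-2b at 2M, 0.0185 to 0.0203 against 0.0219 to 0.0278 at 4M, and the ratios overlapped at 6M.

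The C5a receptor C5ar1 read 0.554, 0.503 and 0.106 CPM in BALB/c against 2.64, 1.84 and 2.37 CPM in NOD.H-2b mice at 2M. The 4M levels were 0.313, 0.589 and 0.656 CPM against 2.13, 2.47 and 2.24 CPM, and those at 6M 0.429, 0.554 and 0.538 CPM against 2.38, 2.2 and 2.05 CPM. No mouse of one strain reached the other, and the log2 fold changes were 2.60, 2.13 and 2.18. The ratio of C5ar1 to the macrophage sum overlapped between the strains at each age. Over all ages that ratio was 0.00172 to 0.00665 in BALB/c and 0.00452 to 0.0104 in NOD.H-2b. C5ar2, a C5a receptor that does not couple to G proteins, had 0 to 3 counts per BALB/c mouse. Its NOD.H-2b counts were 16, 24 and 25 at 2M, 29, 26 and 25 at 4M and 56, 30 and 26 at 6M, or 0.262 to 0.731 CPM. Pooled over the mice of an age, the NOD.H-2b share of counts was 14.1 times that of BALB/c at 2M (95% exact interval 5.24 to 53.2), 18.9 times at 4M (7.09 to 70.9) and 26.8 times at 6M (10.2 to 100), where the intervals cover counting error only.

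Vsig4, a receptor of resident macrophages for C3b, did not pass the filter on low counts in the fits by age. It had at most 1 count per BALB/c mouse and 1 to 19 counts per NOD.H-2b mouse. The pooled ratio was 11.3 at 2M (interval 1.69 to 478) and 9.43 at 4M (2.29 to 83.2), and at 6M it was at least 12.5-fold higher, with the 0 counts of BALB/c set to the floor of 3 over the group. In 1 fit of all 18 mice, where it passed the filter, Vsig4 was a higher DEG at all 3 ages, and with no filter it was one at 4M and 6M.

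Of the 4 regulators in the fluid phase, Serping1 and Clu rose in NOD.H-2b. Serping1, the C1 inhibitor that takes C1r and C1s off C1q, had 11.6 to 22 CPM in BALB/c and 29.1 to 50.1 CPM in NOD.H-2b. Its log2 fold change was 1.24 at 2M and 1.45 at 6M, where it was a DEG, and 0.95 (adjusted p = 0.000198) at 4M. Factor I (Cfi), the protease that inactivates C3b and C4b, had 0 to 5 counts per mouse, with a pooled ratio of 5.75 at 6M (interval 1.28 to 52.9). Vitronectin (Vtn), which blocks pore insertion, had 0.639 to 1.4 CPM in BALB/c and 0.941 to 2.09 CPM in NOD.H-2b and did not pass the FDR at any age.

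Clusterin (Clu), a chaperone that also blocks the pore, was the one member for which a narrowing of the strain gap with age passed the FDR. It had 22.3, 18 and 18.3 CPM in BALB/c against 74, 55.5 and 64.1 CPM in NOD.H-2b mice at 2M. The 4M values were 33.1, 35.2 and 35.6 CPM against 55.6, 75.4 and 68.7 CPM, and the 6M values 34.5, 37.7 and 44.1 CPM against 76.4, 74.9 and 64.7 CPM. NOD.H-2b stayed above BALB/c in every mouse of each age. Clu differed by 1.77 ± 0.12 on the log2 scale at 2M, a DEG, and 0.95 ± 0.10 and 0.93 ± 0.10 at 4M and 6M, past the FDR but under 2-fold. From 2M to 6M Clu changed by 0.98 ± 0.11 in BALB/c (adjusted p = 0.00156) and by 0.14 ± 0.11 in NOD.H-2b (adjusted p = 0.321), and the test of the difference gave -0.83 ± 0.18 (adjusted p = 0.00717).

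On cell membranes the regulators split. Cd55, decay-accelerating factor, which breaks up C3 convertases, rose steeply in NOD.H-2b between 2M and 4M. Its levels in BALB/c were 2.73, 2.98 and 1.85 CPM at 2M, 3.69, 3.25 and 4.06 CPM at 4M and 3.47, 3.43 and 4.23 CPM at 6M. In NOD.H-2b they were 3.63, 5.68 and 4.46 CPM at 2M, 33.7, 24.3 and 16.9 CPM at 4M and 54.3, 29.1 and 32.6 CPM at 6M. The groups were close at 2M and far apart afterwards. The log2 fold change was 0.91 ± 0.21 at 2M (1.88-fold, past the FDR only), 2.77 ± 0.27 at 4M (6.83-fold) and 3.42 ± 0.27 at 6M (10.7-fold). Cd55 changed by 3.05 ± 0.32 from 2M to 6M in NOD.H-2b, against 0.55 ± 0.19 (adjusted p = 0.123) in BALB/c, and the strain by age difference was 2.52 ± 0.42 (adjusted p = 0.00288). The related gene Cd55b, which shares part of 6.13% of the windows, stayed at or under 38 counts per mouse.

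Cd55 can be set beside the B cell markers, of which 8 of 8 were also higher DEGs at 6M than at 2M in NOD.H-2b, as were 10 of 10 T cell markers and 1 of 14 macrophage markers. The B cell sum was 1.61, 28.4 and 12.1 CPM in the NOD.H-2b mice at 2M, 326, 173 and 148 CPM at 4M and 444, 223 and 291 CPM at 6M. The NOD.H-2b mouse with the most Cd55 at 2M, 4M and 6M had the highest B cell sum of its age and also the highest T cell and macrophage sums. Over these ages the macrophage sum went from 253 to 291 CPM at 2M to 409 to 526 CPM at 6M, and the T cell sum from 10.5 to 37.2 CPM to 89.6 to 125 CPM. Cd22 and Pax5, the B cell markers with the most counts, were at most 0.403 and 0.0359 CPM in BALB/c and reached 87.5 and 79.8 CPM in NOD.H-2b. The part of B cells, T cells and macrophages in the Cd55 difference was not tested.

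**Figure D3:**
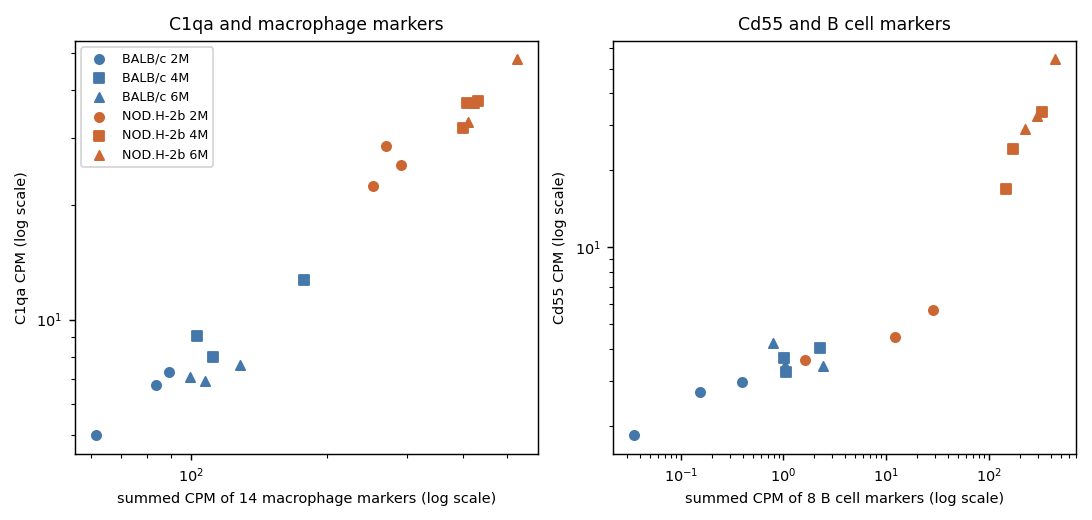
Left, C1qa CPM against the summed CPM of 14 macrophage markers, and right, Cd55 CPM against the summed CPM of 8 B cell markers, each point 1 mouse and all axes logarithmic. In the left plot every NOD.H-2b point lies above and to the right of every BALB/c point. In the right plot Cd55 stays under 6 CPM in all mice whose B cell sum is at or under 28.4 and exceeds 16 CPM in all others.

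Of the other membrane regulators, Cd59a, which stops the pore at C9, was a DEG at 2M with a log2 fold change of 1.21 ± 0.14 (2.36 to 2.81 CPM in BALB/c against 4.97 to 6.36 CPM in NOD.H-2b). The difference was 0.72 (adjusted p = 0.00523) at 4M and 0.52 (adjusted p = 0.0953) at 6M. Cr1l, the rodent regulator Crry, had 33.6 to 39.3 CPM in BALB/c and 31.5 to 38.3 CPM in NOD.H-2b, with log2 fold changes between -0.03 and 0.06. Cd46 had 2.37 to 4.03 CPM in BALB/c and 3.09 to 4.83 CPM in NOD.H-2b and did not pass the FDR. A p above the threshold does not show that these levels were equal.

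**Figure D4:**
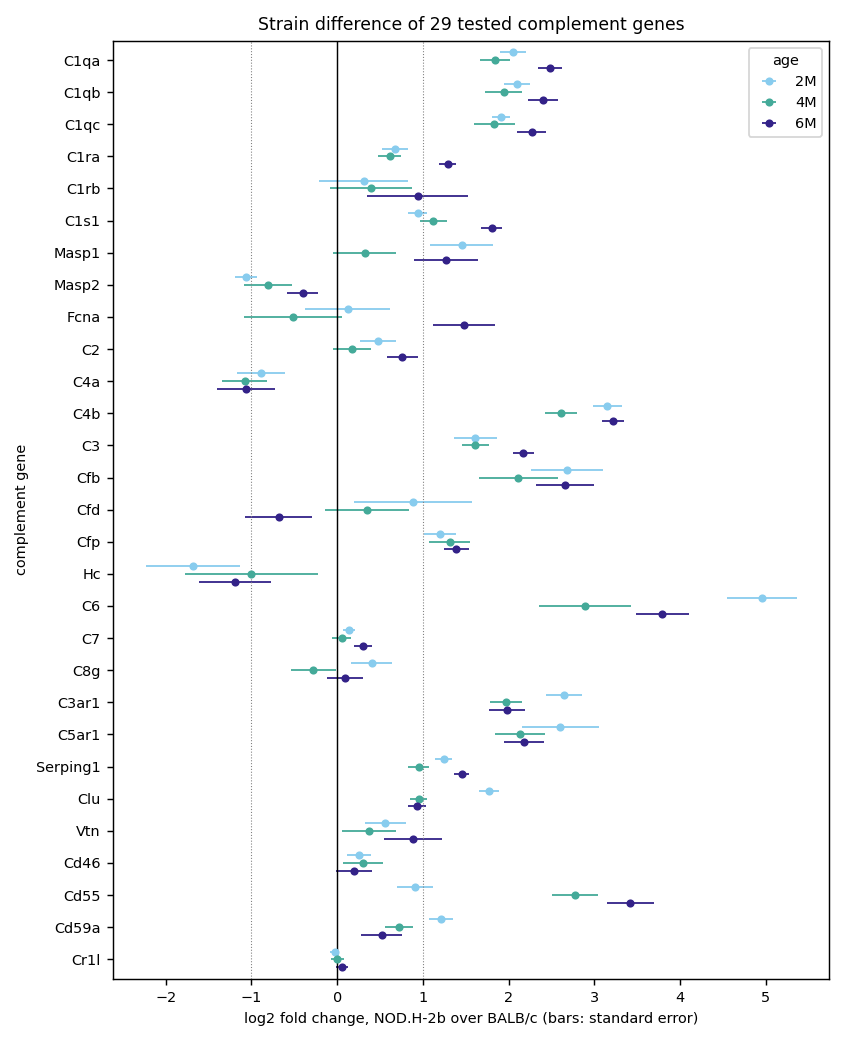
Log2 fold change of NOD.H-2b over BALB/c for 29 tested members, with 1 point per age, bars of 1 standard error and dotted lines at 2-fold; C5ar2 is left out because BALB/c had at most 3 counts per mouse. C6 and C4b lie farthest to the right at 2M, Cd55 moves right from 0.91 at 2M to 3.42 at 6M, and Hc, Masp2 and C4a lie left of 0.

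Ageing moved few members in BALB/c. From 2M to 6M, 0 of the 28 members tested were DEGs in either direction (0.00%, against 1.57% of all 16579 genes higher and 0.115% lower) with edgeR, as with DESeq2, and at an unadjusted p under 0.05 there were 12 higher and 1 lower. At the FDR alone, Clu and C4b (0.86 ± 0.16, adjusted p = 0.0155) had increased in BALB/c, and C4b lost its call without replicate 1 of 2M. In NOD.H-2b, 3 of 29 members (10.3%) were higher at 6M than at 2M, namely Cd55, C3 (1.03 ± 0.17) and Fcna (1.08 ± 0.34). The share over all 18008 genes was 10.9%, and 0 members were lower (0.00%, against 1.55%). At an unadjusted edgeR p under 0.05, 13 members were higher and 1 was lower (C8g) in NOD.H-2b. In neither strain did the share of members called exceed that of all genes. Leaving out 1 mouse ended the call of Fcna in 4 of 6 fits. At the FDR alone 13 members had increased in NOD.H-2b, among them C4b by 0.93, C1s1 by 0.89 and C1qa by 0.61 on the log2 scale. The counts at the FDR alone and at an unadjusted p have no share of all genes beside them.

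The strain gap itself changed from 2M to 6M for 4 of the 31 members tested. It widened for 3 (9.68%, against 7.04% of 19117 genes), namely Cd55, C1s1 and C1ra, and narrowed for 1, Clu (3.23%, against 9.09%). The share that widened lies near that of all genes and the share that narrowed lies under it. For C4b the change was 0.08 ± 0.26 (adjusted p = 0.876), and for C3 0.57 ± 0.27 (adjusted p = 0.171).

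Lymphocyte markers were already raised in NOD.H-2b at 2M. Replicate 1 of that group had the lowest sums of its strain, 1.61 CPM of B cell and 10.5 CPM of T cell markers, against 0.0353 to 0.395 CPM and 0.458 to 0.783 CPM in BALB/c at 2M. The same mouse had 51.3 CPM of C4b, 108 CPM of C3, 1.33 CPM of C6, 22.4 CPM of C1qa and 74 CPM of Clu, each above all 9 BALB/c mice. Its Cd55 level of 3.63 CPM was not, since BALB/c mice reached 4.23 CPM at 6M. Its macrophage sum of 253 CPM also lay above all 9 BALB/c mice. Fibroblast markers, 10 in all, summed to 766 to 855 CPM in NOD.H-2b mice at 2M against 522 to 676 CPM in BALB/c, and their sums overlapped at 4M and 6M. Of 8 hepatocyte markers, Ttr was lower in NOD.H-2b at each age (0.366 to 1 CPM against 1.11 to 2.49 CPM in BALB/c) and Fgb was higher at 2M (0.259 to 0.927 CPM against at most 0.0191 CPM), and the whole list summed to at most 2.5 CPM in any mouse. The part of lymphocytes, fibroblasts and hepatocytes in the levels of the members was not tested.

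Per length of exon, C3 led the members in NOD.H-2b at 6M with 53.6 ± 7.94 CPM per kb (SD, n = 3), followed by C1qa (37.8 ± 7.6), C1qb (33.8 ± 7.87), Clu (20.9 ± 1.86), Serping1 (20.1 ± 1.83) and C4b (19.6 ± 2.23). C1qa and C1qb lay within each other's spread, as did Clu, Serping1 and C4b. In BALB/c at 6M the order was C3 (12.2 ± 0.899), Clu (11.3 ± 1.42), C7 (10.9 ± 0.14) and Serping1 (7.58 ± 0.473), where C3 and Clu, and Clu and C7, lay within each other's spread. C4b stood at 2.16 CPM per kb there.

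Outside the 34 members, 30 other complement genes were in the count table, and 15, 15 and 16 of them could be tested at 2M, 4M and 6M. Of these, 4, 6 and 7 were higher DEGs in NOD.H-2b, beside 12.0%, 15.6% and 18.8% of all genes. Lower DEGs numbered 0, 2 and 3, beside 3.76%, 4.72% and 6.03%. These numbers include Cr2 (higher at 4M and 6M) and Cpn1 (lower at 4M and 6M), tested only through the strain where they were high. At those ages Cr2 had at most 4 counts per BALB/c mouse and Cpn1 at most 9 per NOD.H-2b mouse. The genes higher at all ages were Itgb2 and Itgax, the chains of complement receptor 4, Cd93, once thought to be a C1q receptor, and Csmd1, a membrane inhibitor. Itgax had 0.547 to 4.34 CPM in BALB/c and 6.13 to 19.8 CPM in NOD.H-2b. Csmd1 had 0.86 to 2.34 CPM in BALB/c and 2.62 to 18.8 CPM in NOD.H-2b, and its gap widened with age by 2.02 ± 0.417 (adjusted p = 0.00651). Cr2, the C3d receptor of B cells, went from at most 0.0737 CPM in any BALB/c mouse to 15.5 to 49.4 CPM in NOD.H-2b mice at 4M and 6M. The lower genes were Cpn1, a chain of the carboxypeptidase that inactivates C3a and C5a, and Cd209b, a lectin of macrophages, at 4M and 6M, and Susd4, a membrane inhibitor, at 6M. At 6M Cpn1 had 0.234 to 0.703 CPM in BALB/c against 0.0261 to 0.0351 CPM in NOD.H-2b, where each mouse had 2 counts. Cd209b had 2.58 to 3.37 CPM against 0.561 to 1.08 CPM and Susd4 7.74 to 8.35 CPM against 2.29 to 3.91 CPM at that age.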

How the data were processed

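RNA depleted of ribosomal RNA from 1 LG of each of 18 mice was sequenced with paired reads. Per the labels and the paper's methods, adapters were cut with cutadapt, STAR mapped the reads to GRCm38, and HTSeq made the raw counts per gene that the authors deposited. Neither the gene annotation used, the strand option nor the handling of multi-mapped reads is given in the sources used here. A deposited table of log2 values was not used. Names, lengths and coordinates came from GENCODE M21, which held 54079 of 54232 genes.

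Strains were compared at each age, and 6M with 2M in each strain, on the 6 mice concerned with edgeR 4.0.16 in R 4.3.3 (TMM, filterByExpr, robust quasi-likelihood test, Benjamini-Hochberg over all genes tested). Strain by age is the 6M strain difference minus that of 2M in a fit of all 18 mice, called at an FDR under 0.05. A DEG also needed a 2-fold change. CPM use TMM over all mice. Standard errors were derived from the F statistics. Group folds of genes with at most 3 counts in BALB/c are pooled ratios with 95% exact intervals. Pairs of replicates differed by more than sampling noise. Same-numbered mice did not deviate together, so mice were treated as unpaired.

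The members and gene lists were chosen with earlier results of these data known. Every mouse's value is given for members that were DEGs one way at all ages, Hc, H2-region genes and members called in strain by age, and the rest by range. Other complement genes are named where they were DEGs at all ages, and the 2 top genes of a marker list. Cr2, Cpn1, Cd209b, Susd4, Cd55b, Cd163, C8g, Ttr, Fgb, Car6 and Lcn3 were named after their values were seen. So were genes sharing reads and members called at the FDR alone. Alternatives were DESeq2 1.42.0 size factors and its Wald test, upper quartile scaling, no filter, at least 10 counts in every sample, a replicate block, 1 fit of all mice, glmTreat, and leaving out each mouse. The steps were tested on simulated data.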

Additional observations from a re-analysis of the deposited data

Results flagged for a closer look

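The strain difference changed between 2M and 6M, by the edgeR test of that change over 18 mice, for 4 of 31 complement genes tested. The gap widened for 9.68% of them, against 7.04% of all genes, and narrowed for 3.23%, against 9.09%. These shares lie near or under the background. The change was 2.52 on the log2 scale for Cd55 (decay-accelerating factor), 0.87 for C1s1 (C1s) and 0.63 for C1ra (C1r), each a wider gap at 6M. For Clu (clusterin) it was -0.83, a narrower gap. The C1ra call was lost in 7 of the 18 fits that left out 1 mouse. For Cd55, C1s1 and C1ra the level of every NOD.H-2b mouse at 6M lay above every NOD.H-2b mouse at 2M. For Clu it was the BALB/c mice that did so, with 18 to 22.3 CPM at 2M and 34.5 to 44.1 CPM at 6M. B and T cell markers rose in NOD.H-2b over the same ages, the macrophage sum went from 253 to 291 CPM to 409 to 526 CPM, and their part in these changes was not tested.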

How the results depend on the processing

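Counts of members called higher by strain stayed within 1.5 times at every age under all alternatives, while the few lower calls did not. At 2M, where 2 members were lower, 1 was with no filter, with a minimum of 10 counts per sample, by DESeq2 and in 1 fit of all 18 mice, 0 with glmTreat against 2-fold, and 1 to 2 when a mouse was left out, with C4a in place of Hc and Masp2 without replicate 1 of NOD.H-2b. The 1 lower member at 4M became 0 with glmTreat and 0 to 2 without a mouse. At 6M the 2 lower members became 1 with no filter, at least 10 counts, DESeq2, the replicate block and 1 fit of all mice, 0 with glmTreat, and 0 to 1 without a mouse. Of age, BALB/c gave 0 to 1 higher members without a mouse (Clu, C4b or C3ar1). The 3 higher members in NOD.H-2b became 1 with glmTreat and 1 to 6 without a mouse, with 0 to 1 lower. Without replicate 1 at 2M or replicate 1 at 6M of NOD.H-2b only Cd55 was left, and without replicate 2 at 2M there were 6. The narrowing gaps numbered 1 to 2 without a mouse (Clu, with Cd59a in 2 fits and Cfd in 1). Hc at 4M ran from -1.39 to 0.05 when a mouse was left out, and turned above 0 without replicate 3 of BALB/c. Over single members, 1095 of 1208 alternatives kept direction and side of the threshold and 112 lost the call, 73 of them outside glmTreat. Uncalled members changed sign in 64 alternatives. The replicate numbers share nothing in the labels, and same-numbered mice correlated between -0.0734 and 0.175 across strains at 1 age and between -0.376 and 0.0654 across ages in 1 strain. The replicate block moved calls over all genes from 2717 to 2706 at 2M, 3604 to 3452 at 4M, 4409 to 4371 at 6M and 2244 to 1584 for age in NOD.H-2b, and cost C1qa, C1qb, C1qc, Cr1l and Fcna their age calls in NOD.H-2b. Except where a fit had fewer mice or genes or a stricter limit, the cause was not tested. Depth limits Mbl1, Mbl2, Cfi, Vsig4, C5ar2 and Hc, all with few counts.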
